A study of Caenorhabditis elegans with 2 samples.

Results

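DVE-1 chromatin immunoprecipitation peaks were described at 10 genes of the endoplasmic reticulum stress response of Caenorhabditis elegans, of 19973 annotated protein-coding genes on the nuclear chromosomes. The genes were taken by name: the sensors and factors ire-1, xbp-1, pek-1 and atf-6, the chaperone class hsp-3, hsp-4, crt-1, cnx-1 and manf-1, and the degradation adaptor sel-1. The single group was made up of whole hermaphrodite worms at the L4 larval stage. Their strain, OP398, carries the insertion wgIs398, expressing DVE-1 with GFP and FLAG at its C terminus, and the unc-119 allele tm4063. Its 2 biological replicates were precipitated with an anti-GFP antibody after sonication. The labels name no stress treatment, and no group without the tagged protein was analysed here. The protein measured was a tagged transgene product, and material of all tissues was mixed, so binding in few cells and weak binding in many cells cannot be told apart.

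DVE-1 is a homeodomain protein of the SATB family, best known in worms as a regulator of genes that respond to misfolded protein in mitochondria. The endoplasmic reticulum has an unfolded protein response of its own. In it, the membrane sensors IRE-1, PEK-1 and ATF-6 detect misfolded protein in the lumen, IRE-1 starts the splicing that activates the xbp-1 message, and PEK-1 restrains translation. The chaperones of the lumen fold new secretory proteins, and several are classical targets of the response.

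An optimal DVE-1 summit lay in the gene region of 9 of the 10 genes, against 28.9% of all protein-coding genes. The gene region ran from 2000 bp upstream of the most distal annotated 5' end to the 3' end, and an optimal summit is the highest point of a peak on the reproducible list of 7262 peaks. All 4 sensors and factors and all 5 genes of the chaperone class had one, and sel-1 had none. In the promoter window, from 1000 bp upstream to 200 bp downstream of any annotated 5' end, the count was also 9 of 10, against 21.7% of all genes. The regions of these 10 genes spanned 2905 to 14668 bp with a median of 4713 bp, against a median of 4027 bp over all genes. Genes are not replicates of a condition, and no test was made of these counts.

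The 9 genes held 14 optimal summits, and none was shared between them. The sensors and factors held 6 and the chaperone class held 8. Of these summits, 10 lay in promoter windows, between 33 and 473 bp upstream of the nearest 5' end of the gene, and 4 lay farther upstream. No optimal summit lay within any of the 10 genes: 14 of 14 were upstream of the most distal 5' end, against 68.1% of the gene and summit pairs over all genes. By the annotation all but 1 of the 14, the promoter summit of crt-1, were intergenic. The gene itself was the nearest protein-coding gene to 11 of the 14 summits. The farther summits of hsp-3, crt-1 and cnx-1, all of the chaperone class, were nearer to another gene. The 5' end of that gene was 20 bp away at hsp-3 and 38 bp away at cnx-1. At crt-1 it was 1085 bp away, little nearer than crt-1 itself at 1130 bp. On ce11 xbp-1 spans chrIII:4193809-4195358 on the plus strand, and on the minus strand hsp-3 spans chrX:6089028-6092124 and hsp-4 spans chrII:7350112-7352645. A second summit was present at ire-1, pek-1, hsp-3, crt-1 and cnx-1, while 8.51% of all genes had 2 or more. The 2 peaks of pek-1 overlapped. Weaker regions of the pooled list of 30000 that were not on the optimal list numbered 33 in these gene regions, of which 24 lay within the genes and 9 upstream, with signals of 5.57 to 28.2. Many worm messages are trans-spliced, so an annotated 5' end can be a splice acceptor and not the site where transcription starts.

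**Figure D1:**
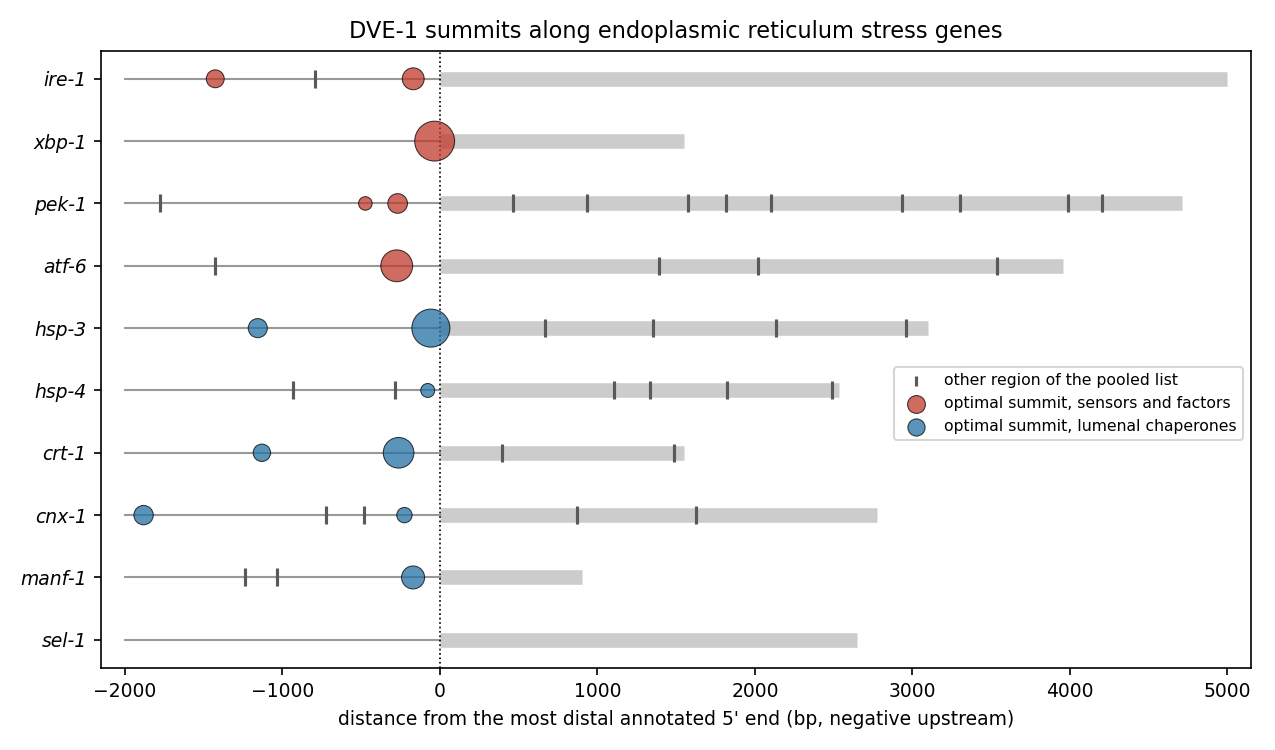
Position of optimal summits (circles, area by deposited signal) and of other regions of the pooled list (grey ticks) along the 10 genes, as distance in bp from the most distal annotated 5' end, with the gene as a grey bar. The ire-1 bar is drawn to 5000 bp only; the circles, 14 in all, lie left of the 5' end, and sel-1 has neither circle nor tick.

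The sequences around the main promoter summit are shown for xbp-1 and hsp-3, the strongest peak of each class, for hsp-4, the weakest main peak of the pooled list, and for crt-1 and manf-1, which share a short motif with the pair of hsp genes. They were read from the RefSeq genome of assembly WBcel235 (ce11), 5′ to 3′ on the strand of the gene, and end before the annotated 5' end. The spans were chrIII:4193626-4193808 on the plus strand for xbp-1 and, on the minus strand, chrX:6092125-6092330 for hsp-3, chrII:7352646-7352871 for hsp-4, chrV:6100654-6100953 for crt-1 and chrIV:2928441-2928740 for manf-1. Capitals mark TGACGTG, or TGACGTCA in xbp-1, on either strand; the other strand of TGACGTG reads CACGTCA.
xbp-1: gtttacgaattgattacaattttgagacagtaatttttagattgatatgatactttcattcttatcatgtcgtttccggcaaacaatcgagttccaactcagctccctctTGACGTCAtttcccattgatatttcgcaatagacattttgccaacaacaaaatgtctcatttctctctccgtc
hsp-3: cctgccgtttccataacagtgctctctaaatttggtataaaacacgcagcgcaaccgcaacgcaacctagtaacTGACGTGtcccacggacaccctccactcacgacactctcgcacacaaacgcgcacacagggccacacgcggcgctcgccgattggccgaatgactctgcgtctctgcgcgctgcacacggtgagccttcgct
hsp-4: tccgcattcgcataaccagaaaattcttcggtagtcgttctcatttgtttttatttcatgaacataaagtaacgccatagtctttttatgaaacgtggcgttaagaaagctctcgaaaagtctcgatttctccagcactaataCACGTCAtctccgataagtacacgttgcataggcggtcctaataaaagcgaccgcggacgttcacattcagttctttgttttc
crt-1: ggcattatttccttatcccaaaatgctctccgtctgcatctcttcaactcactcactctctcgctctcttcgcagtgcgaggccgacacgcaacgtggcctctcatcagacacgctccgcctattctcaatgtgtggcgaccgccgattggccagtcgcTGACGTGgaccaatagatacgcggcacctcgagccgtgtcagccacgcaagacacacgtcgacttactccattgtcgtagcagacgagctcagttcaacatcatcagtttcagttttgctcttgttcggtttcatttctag
manf-1: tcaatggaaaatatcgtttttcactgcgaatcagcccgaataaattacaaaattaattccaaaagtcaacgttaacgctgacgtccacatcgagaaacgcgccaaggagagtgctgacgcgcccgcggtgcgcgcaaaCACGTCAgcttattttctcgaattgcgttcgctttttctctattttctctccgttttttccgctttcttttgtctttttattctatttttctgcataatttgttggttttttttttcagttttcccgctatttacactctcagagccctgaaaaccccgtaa

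Among the promoter windows of 300 bases centred on a summit, TGACGTG was present at hsp-3, hsp-4, crt-1 and manf-1. That was 0 of the 4 sensors and factors and 4 of the 5 genes of the chaperone class, against 4.38% of the 7262 optimal windows. The motif was chosen after these sequences had been seen, and it was in 0 of the 7 promoter windows of other lumenal chaperones and folding enzymes. TGACGTG is the core of the element that XBP1 and ATF6 are known to bind in mammals. The centre of the motif lay 3 bp from the summit at hsp-4, 8 bp at manf-1, 13 bp at crt-1 and 72 bp at hsp-3. It lay 80 bp upstream of the nearest annotated 5' end at hsp-4, 178 bp at manf-1, 249 bp at crt-1 and 129 bp at hsp-3. The longer form TGACGTGG was searched first and was found at crt-1 alone of the 14 windows, and in 1.36% of all optimal windows. The display of crt-1 and manf-1 was likewise chosen afterwards.

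The palindrome TGACGTCA, the cAMP response element of mammals, was found in the xbp-1 window alone of the 14, against 1.96% of optimal windows. Its centre was 37 bp from the xbp-1 summit and 70 bp upstream of the 5' end. CCACG, a piece of the endoplasmic reticulum stress element of mammals that overlaps the other strand of TGACGTGG, was in 7 of the 14 windows and 5 of the 10 promoter windows, against 26.3% of optimal windows. GATAA, the core of sites of GATA factors, was in 7 of the 14 windows and 5 of the 10 promoter windows, against 69% of optimal windows. GAGACG, a 6-base word met in earlier results of these data, was in 3 of the 14 windows, against 22.9% of optimal windows, and in 1 of the 10 promoter windows, at hsp-3. All motifs were sought on both strands. The windows around the pair of pek-1 summits overlap, so they are not independent stretches of sequence. The 14 windows of these genes were 32% to 59% G and C with a median of 41.6%, against a median of 37% over optimal windows. A match describes the letters of a window and not a site that a factor uses.

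In the pooled list, signal values of the main promoter summits at the sensors and factors differed more than 4-fold, from 74.0 to 305. The range was narrower in replicate 1, from 38.4 to 131. The signal is the value that the authors' peak caller gave each region against a control, and its scale differs between lists; the median over optimal peaks was 64.7 in the pooled list. For the replicates it is also given as a multiple of the median over the optimal peaks matched in that replicate, which was 29.4 in replicate 1 and 37.8 in replicate 2. A replicate region was matched when its summit lay within 100 bp of the optimal summit.

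The strongest peak was at xbp-1, which encodes the bZIP factor activated by splicing. Its summit lay at chromosome III position 4193776, 33 bp upstream of the 5' end, in a peak at chrIII:4193638-4193942. The pooled signal was 305, which ranked 52 of 7262, and it was 4.72 times the median optimal peak. The replicate signals were 131 at rank 70 in replicate 1 and 173 at rank 47 in replicate 2. Both replicates thus placed xbp-1 among their strongest regions, at 4.45 and 4.58 times their medians, or 4.52 ± 0.086 (SD, n = 2). No other region of the pooled list lay in the xbp-1 gene region, whose upstream neighbour on the same strand, dnj-16, ended 380 bp away.

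atf-6, which encodes the sensor that is cut in the Golgi to release a bZIP factor in mammals, had 1 summit, 274 bp upstream of its 5' end at chromosome X position 12480674. The pooled signal was 194 at rank 283, or 3.01 times the median. Replicate 1 gave 61.1 at rank 894, and replicate 2 gave 133 at rank 143. The replicates agreed on the position and less on the strength, with 2.08 and 3.52 times their medians, or 2.80 ± 1.02 (SD, n = 2). On the log2 scale replicate 1 differed from replicate 2 by -0.76, the widest gap among the main promoter summits, beside an SD of 0.66 for that quantity over all peaks matched in both.

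ire-1 encodes the membrane kinase and RNase that starts xbp-1 splicing. Its promoter summit was 169 bp upstream at chromosome II position 8125079. The pooled signal was 91.9 at rank 2052, and the replicates gave 46.7 at rank 1650 and 51.6 at rank 2197. Relative to the medians these were 1.59 in replicate 1 and 1.37 in replicate 2, or 1.48 ± 0.16 (SD, n = 2). A second summit lay 1426 bp upstream with a pooled signal of 61.5 at rank 3876, just under the median optimal peak. The replicates placed that second summit at 0.98 and 0.95 times their medians. The divergent gene upstream, ulp-4, starts 5050 bp from ire-1, and ire-1 was the nearest protein-coding gene to both summits. Nearest genes are given among protein-coding genes only, and the non-coding gene C41C4.14 lies between the pair of ire-1 summits.

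pek-1 encodes the kinase that phosphorylates the initiation factor eIF2 alpha. Its 2 summits, 268 and 473 bp upstream at chromosome X positions 11415155 and 11415360, both lay in the promoter window. They belonged to overlapping peaks, at chrX:11414973-11415336 and chrX:11415178-11415541. The nearer one had a pooled signal of 74.0 at rank 2940, with 38.4 in replicate 1 and 38.2 in replicate 2. Those replicate values were 1.30 and 1.01 times the medians, or 1.16 ± 0.21 (SD, n = 2). The farther one was near the end of the optimal list, with a pooled signal of 35.3 at rank 7170, where the lowest optimal signal was 34.7. Replicate 1 gave it 22.2 at rank 5358, and replicate 2 gave 15.2 at rank 9856. A further 10 weak regions of the pooled list lay in the pek-1 gene region, the highest at 28.2 in an intron, and all but 1 of them were within the gene.

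The chaperone class spanned a wider range, from 278 at hsp-3 to 37.5 at hsp-4 in the pooled list. In replicate 2 cnx-1 was lower than hsp-4. hsp-3 and hsp-4 both encode BiP, the Hsp70 chaperone of the lumen. The hsp-3 summit lay 57 bp upstream of the most distal of 3 annotated 5' ends, at chromosome X position 6092181. Its pooled signal was 278 at rank 71, or 4.30 times the median optimal peak. Replicate 1 gave 125 at rank 80 and replicate 2 gave 157 at rank 65, which were 4.25 and 4.17 times the medians, or 4.21 ± 0.055 (SD, n = 2).

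The hsp-4 summit lay at a like distance, 77 bp upstream of the most distal 5' end, at chromosome II position 7352722. The pooled signal was 37.5 at rank 6787, or 0.58 times the median, and the peak was therefore near the weak end of the optimal list. Replicate 1 gave 15.04 at rank 8211, and replicate 2 gave 24.2 at rank 6295. These were 0.511 and 0.641 times the medians, or 0.58 ± 0.092 (SD, n = 2). The hsp-3 summit exceeded the hsp-4 summit 8.305-fold in replicate 1 and 6.50-fold in replicate 2, so both replicates gave the same order with a log2 difference of 2.88 ± 0.25 (SD, n = 2). The regions of the pooled list along this pair that were not on the optimal list were weak, at 6.82 to 22.3 in the hsp-3 gene region and 7.57 to 12.6 in the hsp-4 gene region.

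**Figure D2:**
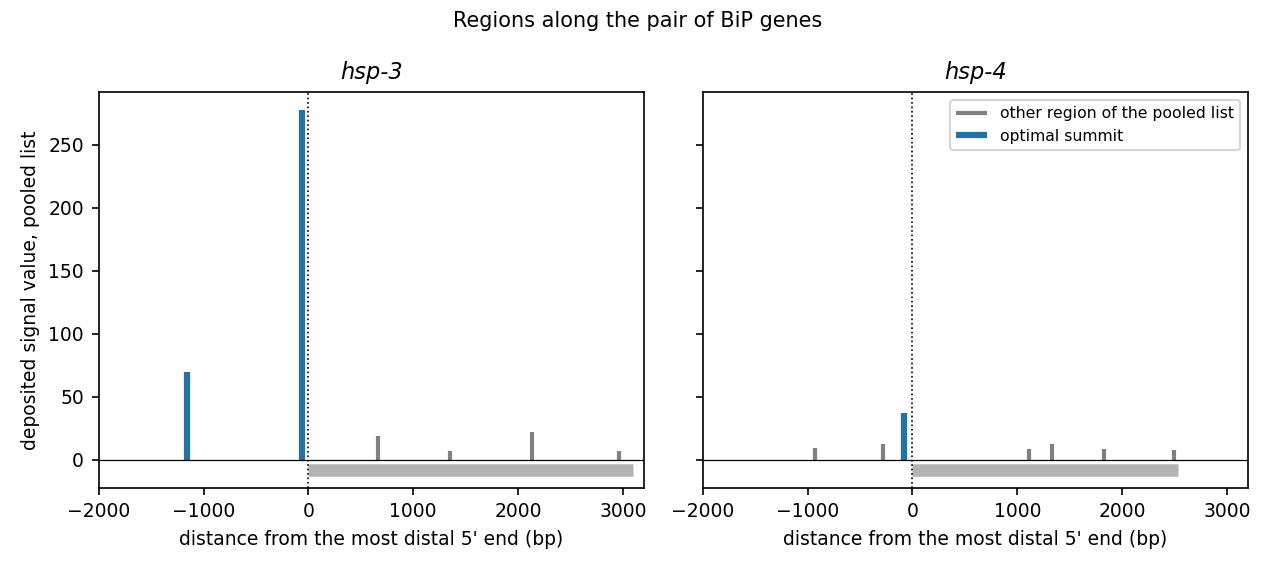
Deposited signal of every pooled-list region along the pair of BiP genes against distance in bp from the most distal 5' end, with optimal summits in blue, other regions in grey and the gene as a grey bar. The tallest line is at 278 for hsp-3 and at 37.5 for hsp-4, both just upstream of the 5' end.

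hsp-3 also had a summit 1156 bp upstream, with a pooled signal of 70.1 at rank 3230. It lay 20 bp upstream of the divergent gene C15H9.5, which was its nearest gene. The nearest region of replicate 1 had 4.92 at rank 21638, with its summit 80 bp away, and that of replicate 2 had 45.7 at rank 2703. The log2 difference of replicate 1 minus replicate 2 was -2.86, far wider than the SD of 0.66 over matched peaks, so this summit rests on replicate 2.

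crt-1 encodes calreticulin, the calcium-binding lectin chaperone of the lumen. Its promoter summit was 262 bp upstream at chromosome V position 6100804, in an exon of the non-coding gene Y38A10A.8. The pooled signal was 180 at rank 370, with 63.9 in replicate 1 and 113 in replicate 2. They were 2.17 and 2.996 times the medians, or 2.58 ± 0.58 (SD, n = 2). A second summit 1130 bp upstream had a pooled signal of 58.2 at rank 4168. Its nearest protein-coding 5' end was that of Y38A10A.11, a gene on the same strand, at 1085 bp.

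cnx-1 encodes calnexin, the membrane-anchored relative of calreticulin. Its promoter summit, 225 bp upstream at chromosome III position 9817362, had a pooled signal of 45.2 at rank 5636. Replicate 1 gave 23.9 and replicate 2 gave 20.7, which were 0.811 and 0.548 times the medians, or 0.68 ± 0.19 (SD, n = 2). The stronger summit in the cnx-1 region lay 1881 bp upstream and had 72.1 at rank 3076, but it was 38 bp upstream of the divergent gene panl-3, which encodes a subunit of a deadenylase. There the replicates differed, with 18.1 in replicate 1 and 54.7 in replicate 2.

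manf-1 encodes a small secreted protein related to the neurotrophic factor MANF, which acts in the lumen and is not a classical chaperone. Its only summit was 170 bp upstream at chromosome IV position 2928591, with a pooled signal of 102 at rank 1701. Replicate 1 gave 51.0 and replicate 2 gave 49.7, or 1.73 and 1.32 times the medians, with a mean of 1.52 ± 0.30 (SD, n = 2). At 127 bp this peak was the narrowest of the 14. Peaks at xbp-1, atf-6, hsp-3, crt-1 and manf-1 were narrower than 364 bp, the width of the other 9 and of 74.1% of all optimal peaks.

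**Figure D3:**
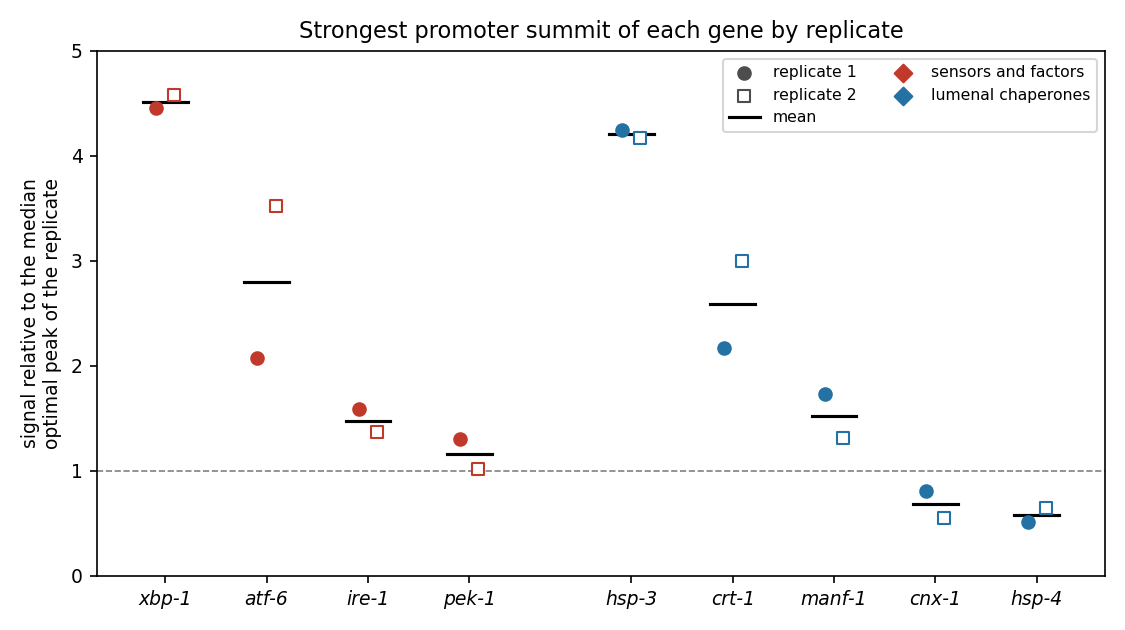
Deposited signal of the main promoter summit of each gene in replicate 1 and replicate 2, each divided by the median over optimal peaks matched in that replicate. xbp-1 (4.45 and 4.58) and hsp-3 (4.25 and 4.17) stand highest, and the lowest are hsp-4 in replicate 1 (0.511) and cnx-1 in replicate 2 (0.548).

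All 14 summits had a matched region in both replicates, against 94% of the 7262 optimal peaks. Of the 14, 10 were among the strongest 7262 regions of each replicate, a stricter cut. The share of all optimal peaks within that cut was not computed. The order by mean relative signal was xbp-1, hsp-3, atf-6, crt-1, manf-1, ire-1, pek-1, cnx-1 and hsp-4. The neighbours atf-6 and crt-1, manf-1 and ire-1, and cnx-1 and hsp-4 kept that order in 1 replicate only and are not separated by these data. xbp-1 exceeded hsp-3 in both, by 1.05-fold and 1.10-fold. ire-1 exceeded pek-1 by 1.22-fold and 1.35-fold, and pek-1 exceeded cnx-1 by 1.61-fold and 1.85-fold.

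The classes overlapped. The strongest summit had a median pooled signal of 143 among the sensors and factors, with a range of 74.0 to 305, and of 102 in the chaperone class, with a range of 37.5 to 278. Each gene's signal was then put on the log2 scale before the median was taken, which for the 4 sensors and factors is the midpoint of the middle pair of log2 values. The difference of these medians of log2 values was 0.39, and it was 0.07 in replicate 1 and 0.60 in replicate 2, with an SD of 0.37 between them. The strongest summit of the gene region was used, which at cnx-1 was the summit 38 bp upstream of panl-3. In replicate 2 that summit, at 1.45 times the median, was the middle value of the chaperone class. The replicate 2 difference and the SD thus rest on it. With promoter summits only, the pooled difference was also 0.39. Over the 9 genes the median main promoter summit was 1.57 times the median optimal peak, against 1.11 over all genes with a promoter summit. 7 of the 9 were above the median optimal peak, and cnx-1 and hsp-4 were below it. The share above it among all genes with a promoter summit was not computed, and their median of 1.11 also lies above it.

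sel-1 encodes the membrane partner of the ubiquitin ligase that removes misfolded proteins from the endoplasmic reticulum. No optimal, pooled or replicate 2 region lay in its gene region. Replicate 1 listed 1 region there, 129 bp upstream, with a signal of 13.95 at rank 8842. The nearest optimal summit was 6422 bp upstream, with a signal of 40.1, and it was closer to F45D3.4, at 1119 bp. The lists do not give the depth, so binding weaker than the listed regions cannot be told from no binding.

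Among 53 other genes in 6 lists tied to the endoplasmic reticulum or to its stress response, 26 had an optimal summit in the promoter window. That was 49.1%, against 21.7% of all genes. Without the list of abu genes, described below, the count was 26 of 39, or 66.7%. At 14 of the 26 genes the strongest such summit also lay in the promoter window of another gene. Of the genes given with values below, these were enpl-1, stc-1, pdi-3, pdi-1, sec-61.B, trap-3, dad-1, trap-2, spcs-2, atf-4 and cup-2. The share of such summits over all genes was not computed. A gene with an optimal summit in its promoter window is called marked here. Of the other lumenal chaperones and folding enzymes 7 of 9 were marked. uggt-1, which encodes the glucosyltransferase that checks glycoprotein folding, was at 4.16 times the median optimal peak and rank 88, below xbp-1 and hsp-3. enpl-1, the lumenal Hsp90, was at 2.59 times, stc-1, an Hsp70-like protein, at 2.44 and uggt-2 at 2.34, and dnj-20, calu-1 and T14G8.3 were also marked. Of the genes for disulfide bond formation 4 of 6 were marked, namely the disulfide isomerase genes pdi-3 at 2.67 times the median, pdi-6 at 2.27, pdi-1 at 2.05 and pdi-2 at 1.64. The oxidase gene ero-1 and dnj-27 were not.

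Of the genes for translocation, signal peptidase and N-glycosylation 11 of 14 were marked. sec-61.B, a subunit of the translocon, and trap-3 shared 1 peak at 3.59 times the median, and dad-1, a subunit of the oligosaccharyltransferase, was at 2.54, trap-2 at 2.53 and spcs-2 at 2.38. trap-1, trap-4, sec-61.A, ostb-1, ostd-1 and ribo-1 were marked too. Of the translational arm and the ligation of xbp-1, 2 of 4 were marked: atf-4, the factor translated when PEK-1 is active, at 2.38 times the median, and rtcb-1, the ligase that joins the spliced xbp-1 message, at 1.32. The lowest shares were in the other 2 lists. Degradation from the endoplasmic reticulum had 2 of 6, marc-6 at 1.18 times the median and cup-2 at 0.808, and sel-11, which encodes the ligase partner of SEL-1, had none. Of the abu genes, which are known to be activated when the response is blocked, 0 of 14 were marked. TGACGTG was in 2 of the 25 distinct promoter summit windows of these other genes, those of pdi-1 and ostb-1.

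**Figure D4:**
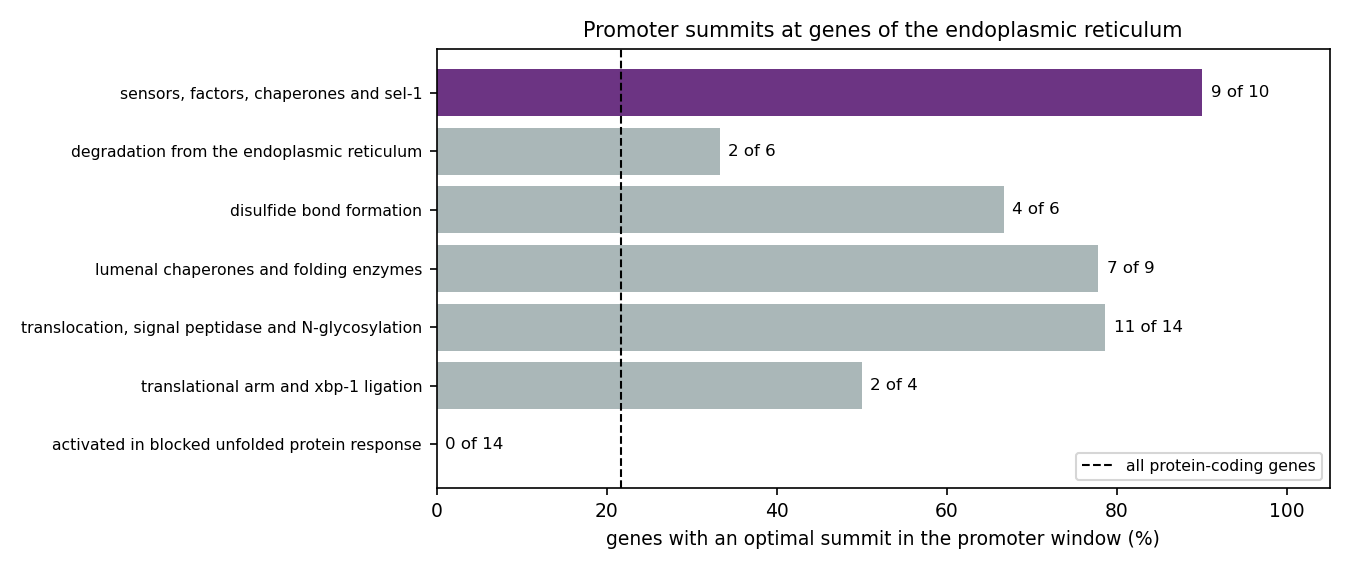
Share of genes in percent with an optimal summit in the promoter window, for the 10 endoplasmic reticulum stress genes and the 6 other lists, with the share of all protein-coding genes as a dashed line. The stress genes are at 9 of 10, the list of translocation at 78.6%, other lumenal chaperones at 77.8%, and the abu genes at 0 of 14, against 21.7% of all genes.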

How the data were processed

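Chromatin of 2 biological replicates of 1 group was compared with 1 shared control, per the texts deposited beside the lists; the control was not analysed here. The deposited ce11 peak lists have no header: 30000 regions for each replicate and for the pooled replicates, and an optimal list of 7262 peaks that equalled the strongest pooled regions. The signal value of each region is the authors' own, and was used only to describe and rank regions within a list. For the aligner, the peak caller, software versions and the threshold, names and values were not given in the sources used here. The lists hold no read counts, so depth is unknown. Lists on ce10 were not used.

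Summits were placed on the Ensembl release 115 annotation of WBcel235 with Python 3.11.15, pandas 2.3.3 and numpy 2.4.6, and drawn with matplotlib 3.10.9. The placement was tested on simulated summits with known positions. A gene of the other lists is named where it had a promoter summit, with values for up to 4 of a list; 3 listed symbols had no match. The 10 genes, the lists and the windows were chosen with earlier results of these data known. With 2 replicates of 1 group no test between groups was possible, and the SD measures the spread between these replicates.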

Additional observations from a re-analysis of the deposited data

How the results depend on the processing

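No paired analysis was possible because the study has 1 group. Among the strongest 3631 optimal peaks the 10 gene regions held 9 summits in place of 14, while 8 genes kept a summit in the region and 7 in the promoter window. The region count includes cnx-1 only through its summit near panl-3. Shares of all genes were computed for the full optimal list only, so these counts have no share beside them. Taking the strongest 7262 regions of a single replicate in place of the optimal list, the summits numbered 12 to 15, the genes marked in the region 8 to 9 and the genes marked in the promoter window 8, with cnx-1 lost without replicate 1 and hsp-4 lost without replicate 2. Reaching 1000 bp upstream left 10 summits, at 9 genes. A promoter reach of 500 bp, the nearest 5' end only, and protein-coding transcripts only each left 9 genes. The strongest summit of 9 genes was found in both replicates within 50, 100 or 200 bp, and of 8 genes among the strongest regions of each replicate. The log2 difference of sensors and factors minus the chaperone class ran from 0.07 to 0.60 with a replicate left out. It was 0.10 without the strongest gene of each class and 0.64 with sel-1, set to the weakest optimal peak, counted with the chaperones. The values of 0.60, 0.10 and 0.64 all rest on the cnx-1 summit near panl-3, which entered the chaperone median. They were not computed with the cnx-1 promoter summit. The unknown depth limits what can be said of weak peaks and of genes with none.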
